A study of Mus musculus with 7 samples.

Results

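Cytotoxic lymphocytes kill by releasing granules and by engaging death receptors, and they recruit other cells with chemokines. The 10 genes described here cover those functions and were taken by symbol from a table of 19589 genes. Ccl3, Ccl4 and Ccl5 encode inflammatory chemokines, small secreted proteins that attract leukocytes. Gzma, Gzmb and Gzmk encode granzymes, the proteases of cytotoxic granules, and Prf1 encodes perforin, which forms pores in the target membrane. Nkg7 encodes a membrane protein of the granules, Fasl the ligand of the death receptor Fas, and Hopx a small homeodomain protein found in effector T cells. Most CD4+ T cells are helpers that make little of this programme. In mice, CD8+ T cells and natural killer (NK) cells are its usual carriers, and subsets of CD4+ T cells can express parts of it.

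RNA came from CD4+ cells sorted by flow cytometry from the spleens of C57BL/6 mice. The 3 RT libraries (RT1 to RT3) came from mice described as Tet2-/- with G17V RHOA. The Tet2 enzyme starts the removal of methyl groups from cytosines in DNA. G17V RHOA is a mutant small GTPase that recurs in angioimmunoblastic T cell lymphoma. The 4 WT libraries (WT1 to WT4) came from wild-type mice of the same strain. The promoter or cell type that drives the mutant RHOA, whether Tet2 was lost in every cell, and the ages of the mice were not given in the sources used here. The deposited values are RPKM, in which reads are divided by gene length and by library size.

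Depth split the libraries into 2 sets, and this bears on every value below. Whole reads were recovered from the RPKM values, and 3 libraries, called deep, held 8861172 to 11010999 reads in genes. They were RT1, WT1 and WT2. The other 4, called shallow, held 96357 to 111071 reads in genes and were RT2, RT3, WT3 and WT4. Levels are given as reads per 1000000 recovered reads (RPM). RPKM is not on the same scale in both sets. Of the library total it divides by, 47.7% to 51.7% lay in genes in deep libraries and 88.2% to 91.3% in shallow ones. RPKM summed over genes was 133044 to 152578 in deep and 326187 to 366023 in shallow libraries. RPKM means of RT and WT, and the RPKM test without a set term, mix these scales. A gene with 0 reads may lie as high as 0.272 to 0.339 RPM in a deep library and 27.0 to 31.1 RPM in a shallow one, which is the level of 3 reads. Reads of the targeted gene Tet2 numbered 1292 in the library labelled RT1, 1 in RT2 and 0 in RT3, against 1381 in WT1, 1105 in WT2 and 4 in each of WT3 and WT4. RT1 thus had a Tet2 total like the deep WT libraries, but a total over the gene cannot show the loss of some exons, so it checks no label. Expression of Xist and of Y-linked genes was that of males in RT3, WT3 and WT4 and of females in RT1, RT2, WT1 and WT2. WT3 and WT4 differed by more than sampling noise (chi-square 1.17 per degree of freedom over 2347 genes, p = 2.88e-08), against 3.03 for RT2 and RT3, and were kept as 2 samples.

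The 10 genes took very unequal shares. Summed over them, the level was 66.8 RPM in RT1, 3404 RPM in RT2 and 1585 RPM in RT3, against 245 RPM in WT1, 134 RPM in WT2, 343 RPM in WT3 and 390 RPM in WT4. RT2 and RT3 were therefore the highest of the 7 libraries and RT1 the lowest. Levels of different genes were compared per length, in RPKM. Ccl5 had the highest RPKM of the 10 in every library except WT2, where Nkg7 stood highest at 10.8 RPKM. In RT2 the order was Ccl5 at 1999 RPKM, Nkg7 at 414, Gzmk at 374, Ccl3 at 123, Ccl4 at 100.3, Hopx at 49.9, Gzmb at 19.8, Fasl at 4.88 and Prf1 at 3.66 RPKM, with Gzma listed at 0. Neighbours such as Nkg7 and Gzmk, with 40 and 55 reads, or Fasl and Prf1, with 1 read each, were too shallow to order.

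**Figure D1:**
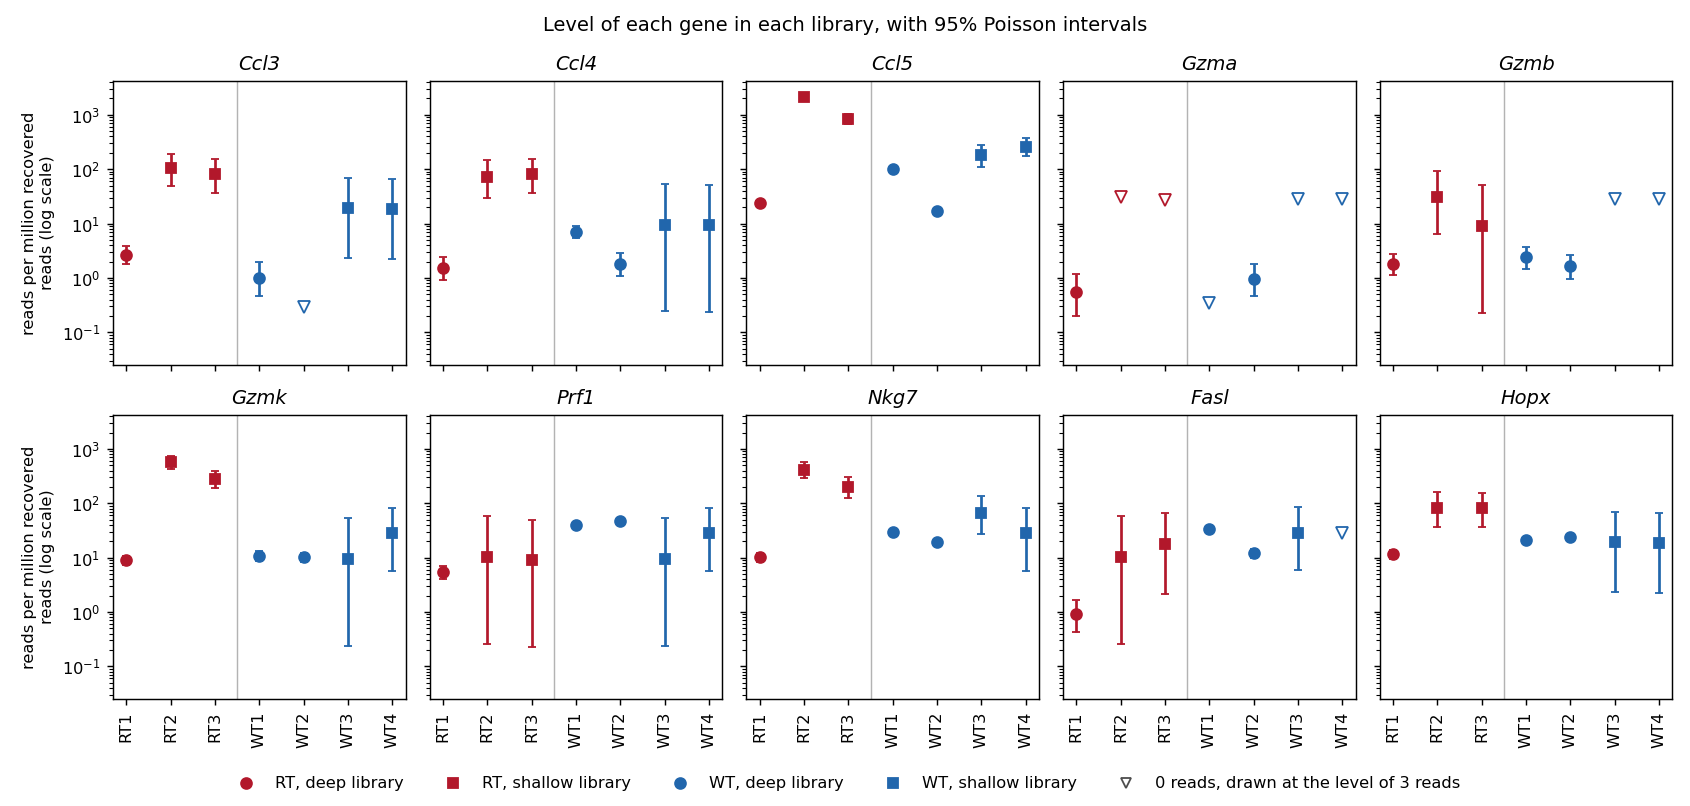
Level of each of the 10 genes in each library, in RPM on a log axis, with RT libraries in red on the left of each panel and WT libraries in blue on the right. Circles are deep and squares shallow libraries, bars are 95% Poisson intervals and open triangles mark 0 reads at the level of 3 reads. RT2 and RT3 stand highest for Ccl5, Gzmk and Nkg7, and RT1 stands lowest for Prf1 and Fasl among libraries with reads.

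For Prf1, Fasl, Gzmk and Nkg7, which each passed the threshold in at least 1 of the tests below, the promoter sequence is printed to show what these granule and death-ligand genes carry next to their start. The sequences are RefSeq's for GRCm38.p6 and run 5′ to 3′ on the gene's strand, from 250 bases before the start to 50 after it. A RefSeq entry was matched for 8 of the 10 genes. Capitals mark matches, on either strand, to 5 motifs. The Runx motif was TGTGGT, which 16.8% of the 32851 RefSeq promoters of this length hold. The T-box motif, held by 3.98% of those promoters, was written as GGTGTGA in the search. For AP-1 the letters were TGANTCA, found in 7.81% of promoters. The TATA box, searched for as TATAAA, occurs in 13.6% of the same promoters. An NF-kB motif of 10 letters occurs in 8.46%. T-box and Runx factors are known regulators of cytotoxic genes in mouse lymphocytes.
Gzmk: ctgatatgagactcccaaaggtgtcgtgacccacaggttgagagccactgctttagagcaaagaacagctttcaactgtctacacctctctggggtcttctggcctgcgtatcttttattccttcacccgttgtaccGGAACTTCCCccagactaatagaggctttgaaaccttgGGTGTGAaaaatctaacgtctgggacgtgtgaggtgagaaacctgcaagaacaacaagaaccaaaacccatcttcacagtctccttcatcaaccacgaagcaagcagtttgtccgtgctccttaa
Nkg7: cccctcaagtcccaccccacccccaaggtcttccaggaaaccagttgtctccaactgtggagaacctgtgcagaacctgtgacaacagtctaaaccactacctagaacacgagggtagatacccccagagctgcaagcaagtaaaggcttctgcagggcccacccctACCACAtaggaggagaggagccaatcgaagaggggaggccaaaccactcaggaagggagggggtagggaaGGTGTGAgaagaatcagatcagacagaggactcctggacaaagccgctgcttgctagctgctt
Prf1: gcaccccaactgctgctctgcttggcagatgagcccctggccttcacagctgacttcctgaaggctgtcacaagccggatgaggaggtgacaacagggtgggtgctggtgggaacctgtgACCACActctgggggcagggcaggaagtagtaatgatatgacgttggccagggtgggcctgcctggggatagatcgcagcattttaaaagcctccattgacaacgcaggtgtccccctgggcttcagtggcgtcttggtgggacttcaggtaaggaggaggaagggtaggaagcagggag
Fasl: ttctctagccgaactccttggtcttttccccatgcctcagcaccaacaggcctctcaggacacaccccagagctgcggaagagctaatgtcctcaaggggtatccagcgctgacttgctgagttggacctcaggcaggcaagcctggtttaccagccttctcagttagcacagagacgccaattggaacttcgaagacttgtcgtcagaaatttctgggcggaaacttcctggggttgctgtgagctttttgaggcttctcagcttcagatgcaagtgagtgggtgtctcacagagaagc
The Gzmk promoter lies at chr13:113180916-113181215 on the minus strand and holds an NF-kB match beginning 113 bases before the start and a T-box match beginning 75 bases before it. This RefSeq start lies inside the GENCODE span of Gzmk, 113171608 to 113225908, and is not the start of that span. The Nkg7 promoter, at chr7:43436888-43437187 on the plus strand, holds a Runx match beginning 83 bases before the start and a T-box match beginning 13 bases before it. A Runx match beginning 130 bases before the start lies in the Prf1 promoter, at chr10:61297586-61297885 on the plus strand. None of the 5 motifs was found in the Fasl window, at chr1:161788446-161788745 on the minus strand. Gzmk and Nkg7 thus shared the T-box letters. The matches do not overlap one another, and they describe letters only. Among the genes not printed, Gzmb held 1 AP-1 and 2 Runx matches and Ccl3 and Gzma 1 Runx match each.

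The question put to the data was whether these genes differ between RT and WT CD4+ splenocytes. Over all 7 libraries they did not pass in either main test. On log2(RPKM + 1), limma with genotype as its only term called 0 of the 8 genes that passed the filter on low values, against 0.0521% of all 9605 genes tested. At an unadjusted p under 0.05 it gave 1 higher gene, Gzmk, and 1 lower gene, Prf1, against 435 higher and 400 lower of all genes. On recovered reads, limma voom with a term for the library set called 0 of the 6 genes that passed, against 17.9% of 5869 genes. Ccl3 was higher and Hopx lower there at an unadjusted p under 0.05, against 952 higher and 914 lower of all genes. The read filter asked for 10 reads over the shallow libraries. Gzma had 0, Gzmb 4, Prf1 6 and Fasl 6 such reads and were not tested. Most of the shallow reads of the 6 tested genes came from RT2 and RT3, so the count of genes that passed this filter is no support for a direction. In bulk RNA, fewer cells that express a gene and less RNA per cell cannot be told apart.

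The 2 sets of libraries gave different pictures, and each is described below with its own fit. In the 4 shallow libraries alone, limma voom called 3 of the 6 genes, Ccl5, Gzmk and Nkg7, all higher in RT, against 3.37% of 5869 genes called higher. When every gene with 1 read was tested, so that 9 of the 10 entered, the same 3 genes passed, against 1.62% of 10519 genes called higher. In the deep libraries alone, RT1 against WT1 and WT2, none of the 6 passed, at a background of 6.7% of 5869 genes, and RT1 was taken to vary as much as WT1 and WT2 do. A single fit with a separate genotype effect for each set tested the difference between the sets. For that difference it called 0 of 6 genes, against 0.596% of 5869. At an unadjusted p under 0.05 there were 4 of the 6, all with the lower effect in the deep set, against 146 lower and 357 higher of all genes. As the 6 genes passed the read filter mostly through RT2 and RT3, that count is no support for a direction. The lowest limma adjusted p of the difference between the sets was 0.0787, for Gzmk. The shallow effect of the single fit, whose spread is estimated over both sets, called 0 of the 6 genes, against 0.0% of 5869. Its log2 fold changes for Ccl5, Gzmk and Nkg7 were 2.55, 4.195 and 2.56, with limma adjusted p-values of 0.669, 0.164 and 0.399. Among the fits on reads, these 3 genes were thus called only where the shallow libraries were fitted by themselves. On the RPKM scale the same 4 libraries called none of these 3, at a background of 0.448% of 9605 genes. The RPKM-scale log2 fold changes for Ccl5, Gzmk and Nkg7 were 2.65, 4.52 and 2.75, with limma adjusted p-values of 0.190, 0.112 and 0.213. Leaving RT1 out of the main fit on reads gave log2 fold changes of 2.55, 4.195 and 2.57 in the same order, again without a call. The limma adjusted p-values were 0.683 for Ccl5, 0.299 for Gzmk and 0.493 for Nkg7.

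Ccl5 (chromosome 11, 83525778 to 83530518, mm10), a chemokine of activated and memory T cells, was the most abundant of the 10 genes. It stood at 23.5 RPM in RT1, 2107 RPM in RT2 and 828 RPM in RT3, against 98.6 RPM in WT1, 16.9 RPM in WT2, 181 RPM in WT3 and 260 RPM in WT4. Both shallow RT libraries lay above every WT library, while RT1 lay between the deep WT libraries, so the groups overlap. Within the shallow set Ccl5 rose in RT, with a log2 fold change of 2.55 ± 0.32 (SE, n = 2 RT and 2 WT) and a limma adjusted p of 3.08e-10. These values rest on 203 and 92 reads in RT2 and RT3, against 19 and 28 reads in WT3 and WT4. The log2 fold change was 1.91 without RT2 and 3.25 without RT3, and it passed in both (limma adjusted p = 0.00277 and 1.39e-05). Among deep libraries the estimate was -0.69 ± 1.001 (limma adjusted p = 0.780). Over all libraries the mean was 933 ± 1001 RPKM in RT (SD, n = 3) and 116 ± 106 RPKM in WT (SD, n = 4), with an RPKM-scale log2 fold change of 2.04 and a limma adjusted p of 0.779.

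Ccl3 (chromosome 11, 83647844 to 83649355) and Ccl4 (chromosome 11, 83662584 to 83664683) encode the neighbouring chemokines MIP-1 alpha and MIP-1 beta. Ccl3 stood at 2.63 RPM in RT1, 104 RPM in RT2 and 81.0 RPM in RT3, against 1.02 RPM in WT1, 0 in WT2, 19.1 RPM in WT3 and 18.6 RPM in WT4. Within each set every RT library was above every WT library, although RT1 was below both shallow WT libraries. Ccl3 was the only one of the 6 genes tested with a positive estimate in both sets, 3.63 ± 1.17 (SE) for the deep set and 2.03 ± 1.17 for the shallow set of the single fit. In the main fit on reads its log2 fold change was 2.88 ± 0.88 (SE) with a limma adjusted p of 0.0565, which missed the threshold. It passed without WT1 (3.11, limma adjusted p = 0.0410), as did 22.2% of all genes, and without WT2 (1.64, limma adjusted p = 0.0374), as did 23.8%. The shallow values rest on 10 and 9 reads in RT2 and RT3, against 2 reads in each of WT3 and WT4.

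Ccl4 stood at 1.54 RPM in RT1, 72.6 RPM in RT2 and 81.0 RPM in RT3, against 6.997 RPM in WT1, 1.84 RPM in WT2, 9.53 RPM in WT3 and 9.29 RPM in WT4. RT1 was the lowest library and RT2 and RT3 the highest. In the main fit on reads the log2 fold change was -0.57 ± 0.67 (SE, limma adjusted p = 0.596), and in the shallow libraries alone it was 2.54 ± 1.17 (limma adjusted p = 0.196). On the RPKM scale the shallow libraries alone gave 2.98 ± 0.15 (limma adjusted p = 0.0436), the one setting in which Ccl4 passed, and 0.448% of 9605 genes did so. The shallow values rest on 7 and 9 reads in RT2 and RT3, against 1 read in each of WT3 and WT4. The SE of 0.15 comes from the RPKM values and not from these counts. Ccl3 and Ccl4 transcripts were 62.7% identical over 620 aligned bases, with a longest shared run of 9 bases.

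Gzmk (chromosome 13, 113171608 to 113225908) encodes granzyme K, a tryptase of memory-type cytotoxic T cells, and had the widest contrast within the shallow set. Its level was 8.90 RPM in RT1, 571 RPM in RT2 and 279 RPM in RT3, against 10.6 RPM in WT1, 10.2 RPM in WT2, 9.53 RPM in WT3 and 27.9 RPM in WT4. RT2 and RT3 stood above the 4 WT libraries and RT1, so the groups overlap through RT1. The lower 95% Poisson limits of 430 RPM in RT2 and 190 RPM in RT3 exceeded the upper limits of 53.1 RPM in WT3 and 81.4 RPM in WT4. Within the shallow libraries Gzmk rose in RT by 4.19 ± 0.86 on the log2 scale (SE, limma adjusted p = 2.35e-04), from 55 and 31 reads in RT2 and RT3, against 1 and 3 reads in WT3 and WT4. The deep libraries, with 98 reads in RT1, against 94 in WT1 and 106 in WT2, gave -0.23 ± 0.73 (limma adjusted p = 0.918). On the RPKM scale, all libraries together gave 3.17 ± 1.33 (limma adjusted p = 0.538), and without RT1 the value was 5.16 (limma adjusted p = 0.0436), where 0.166% of 9029 genes passed.

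Gzmb (chromosome 14, 56258838 to 56262260), the granzyme that cleaves caspases in target cells, had few reads in every library. It had 20 reads in RT1, 3 in RT2 and 1 in RT3, against 21 in WT1, 17 in WT2 and 0 in WT3 and WT4. With every gene of 1 read tested, its log2 fold change was 0.39 ± 0.58 (SE, limma adjusted p = 0.723). Gzma (chromosome 13, 113093825 to 113100981), a tryptase, had 6 reads in RT1 and 0 in RT2 and RT3, against 0 in WT1, 10 in WT2 and 0 in WT3 and WT4. Neither gene showed a difference detectable at this depth. Of the 3 granzymes, Gzmk alone had more than 3 reads in RT2 and RT3. A stretch of 49 bases is shared between the transcripts of Gzmb and Gzmc, so reads of the pair may be split between them.

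Nkg7 (chromosome 7, 43437073 to 43438249), which in mice is needed for full granule release, was highest in the same libraries as Ccl5 and Gzmk. It stood at 10.1 RPM in RT1, 415 RPM in RT2 and 198 RPM in RT3, against 29.9 RPM in WT1, 19.0 RPM in WT2, 66.7 RPM in WT3 and 27.9 RPM in WT4. RT1 was the lowest library and RT2 and RT3 the highest. Nkg7 rose in the shallow libraries by 2.58 ± 0.52 on the log2 scale (SE, limma adjusted p = 2.14e-04). That call was lost without RT2 (2.08, limma adjusted p = 0.0602) and without WT4 (2.01, limma adjusted p = 0.0731). The deep libraries gave -1.21 ± 0.68 (limma adjusted p = 0.391).

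Prf1 (chromosome 10, 61297833 to 61304680), which encodes perforin, did not follow the granzyme Gzmk. Its level was 5.36 RPM in RT1, 10.4 RPM in RT2 and 9.003 RPM in RT3, against 40.4 RPM in WT1, 47.1 RPM in WT2, 9.53 RPM in WT3 and 27.9 RPM in WT4. RT1 was the lowest library, on 59 reads against 358 in WT1 and 488 in WT2, while each shallow library held 1 to 3 reads. With every gene of 1 read tested, limma voom called 2 of 9 genes lower in RT, Prf1 and Fasl, against 4.19% of 10519 genes called lower. Prf1 fell by 2.79 on the log2 scale (SE 0.37, limma adjusted p = 0.00331). Without RT1 the value was -0.57 (limma adjusted p = 0.925), and that fit called 0 of 10519 genes. At an unadjusted p under 0.05 it gave 208 higher genes and 437 lower ones. In the deep libraries of the single fit with an effect per set, Prf1 stood at -3.02 ± 0.42 (SE, limma adjusted p = 0.00316), with RT1 as the only RT library. It was the 1 of 9 genes called there, which is no more than the background of 15.8% of 10519.

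Fasl (chromosome 1, 161780689 to 161788495) stood at 0.908 RPM in RT1, 10.4 RPM in RT2 and 18.0 RPM in RT3, against 34.3 RPM in WT1, 11.98 RPM in WT2, 28.6 RPM in WT3 and 0 in WT4. RT1 was the lowest library with reads, and RT2 and RT3 lay within the WT values. Fasl fell in RT by 3.61 on the log2 scale (SE 0.90, limma adjusted p = 0.0354) in the fit that tested every gene with 1 read. This call was lost when any 1 of the 7 libraries was left out. Without RT1 the value turned to 0.59 (limma adjusted p = 0.958), and without WT1 it was -2.31 (limma adjusted p = 0.152). The RPKM test gave -0.24 ± 0.99 (SE, limma adjusted p = 0.962).

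Hopx (chromosome 5, 77086988 to 77115121) stood at 11.5 RPM in RT1, 83.0 RPM in RT2 and 81.0 RPM in RT3, against 20.99 RPM in WT1, 24.2 RPM in WT2, 19.1 RPM in WT3 and 18.6 RPM in WT4. WT levels were alike across both sets, and the RT libraries lay on either side of them. In the single fit with an effect per set, Hopx was the 1 of 6 genes called in the deep libraries, a share near the background of 20.1% of 5869, at -0.97 ± 0.25 (SE, limma adjusted p = 0.0320), with 1 RT library. The deep libraries alone gave the same -0.97 without a call (limma adjusted p = 0.447), and the main fit on reads gave -0.81 (limma adjusted p = 0.0956). The shallow libraries alone gave 1.88 ± 0.84 (SE, limma adjusted p = 0.177), from 8 and 9 reads in RT2 and RT3, against 2 reads in each of WT3 and WT4.

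**Figure D2:**
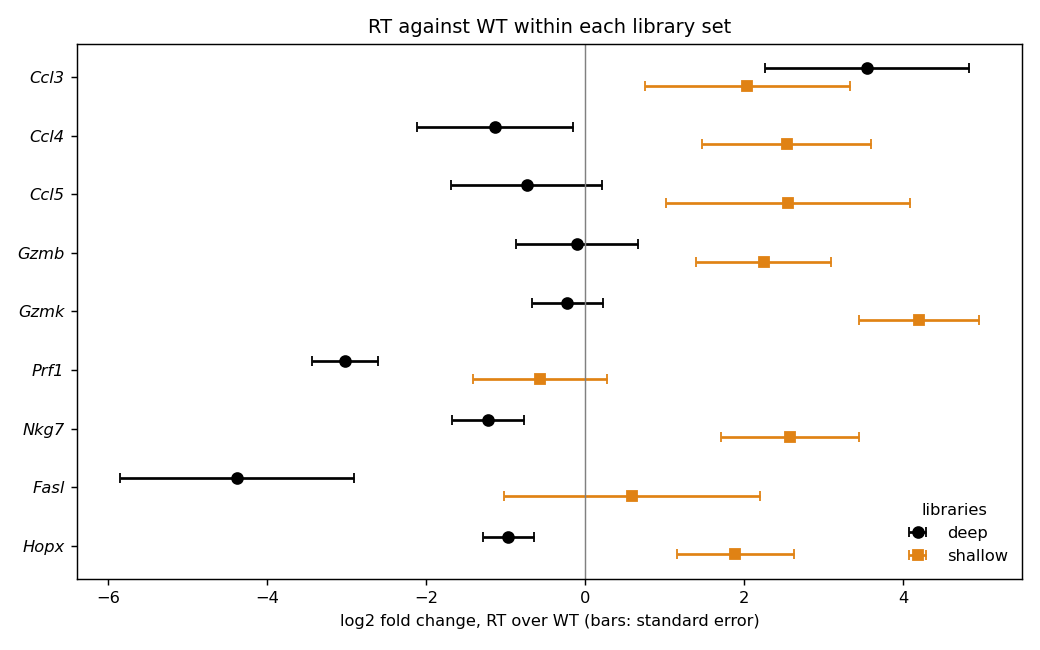
Log2 fold change of RT over WT within the deep (black circles) and the shallow libraries (orange squares), from 1 limma voom fit over genes with at least 1 shallow read; bars are standard errors. Ccl3 lies above 0 in both sets and Prf1 below 0 in both, while Ccl4, Ccl5, Gzmb, Gzmk, Nkg7, Fasl and Hopx lie below 0 in the deep and above 0 in the shallow libraries.

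The sorted cells carried T cell markers in all libraries, and markers of other cells differed with the sets. The 10 genes of the CD4 T list summed to 4640 to 10171 RPM in RT and 4986 to 5660 RPM in WT, with none at 0 in RT. RT2 and RT3 were the highest, at 10171 and 8832 RPM, and 7 of the 10 genes rose in RT in the shallow libraries alone. When library sizes were set by the reads of this list, Ccl5, Gzmk and Nkg7 still rose in the shallow libraries, against 0.647% of genes called higher. Their log2 fold changes were then 1.76, 3.45 and 1.74, with limma adjusted p-values of 0.00343, 0.00917 and 0.0262, and the median of all genes moved to -0.90. For Prf1, the same scaling in the fit over all libraries gave -2.69 (limma adjusted p = 0.00858), against 2.35% of genes called lower, and for Fasl -3.43 (limma adjusted p = 0.0562).

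Markers of the usual carriers of these genes were also summed. The 2 CD8 T genes, Cd8a and Cd8b1, summed to 0 to 9.003 RPM in RT and 9.53 to 27.9 RPM in WT. Both had 0 reads in RT2, and RT3 and WT3 had 1 read of the pair each. All 13 NK genes had 0 reads in RT2, which allows a summed level of up to 31.1 RPM, and RT3 had 27.0 RPM. The NK list ran from 0 to 101 RPM in RT and 25.2 to 195 RPM in WT, and most of it was Tyrobp, which myeloid cells also express. Klre1, Klra1, Klra4, Klra7, Klra8 and Klra9 were at 0 in every library, and Ncr1 had reads in WT2 only. Klrb1c, by contrast, had 48 reads in RT1, 118 in WT1, 93 in WT2 and 1 in WT4. Gzmm had 15 reads in RT1 and 1 in RT3. The 5 gamma delta T genes in the table summed to 0 to 20.8 RPM in RT and 0 to 9.37 RPM in WT. The highest value, in RT2, came from 1 read each of Trdc and Tcrg-C2, under the 3-read level of 31.1 RPM. Trdc had 30 reads in RT1, 45 in WT1 and 61 in WT2. In the deep libraries the CD8 T pair summed to 3.45 RPM in RT1, against 19.9 RPM in WT1 and 25.5 RPM in WT2. The NK list went the other way, at 101 RPM in RT1, 43.0 RPM in WT1 and 25.2 RPM in WT2. The part of CD8 T, NK and gamma delta T cells in the higher Ccl5, Gzmk and Nkg7 of RT2 and RT3 was not tested. Their part in the lower Prf1 and Fasl of RT1 was not tested either.

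Other lists set single libraries or pairs apart. The macrophage and monocyte list summed to 3998 RPM in RT1 and to 488 and 657 RPM in RT2 and RT3, against 778 to 1553 RPM in WT. Its part in the lower Prf1 and Fasl of RT1 was not tested. The B list ran from 156 to 395 RPM in RT and 225 to 1764 RPM in WT, the plasma cell list from 125 to 343 RPM in RT and 40.8 to 1625 RPM in WT, and the erythroid list from 171 to 405 RPM in RT and 111 to 1763 RPM in WT. In each the highest values were those of WT3 and WT4, which are also the WT libraries of the shallow set. The dendritic list likewise ran from 0 to 80.4 RPM in RT and 50.8 to 436 RPM in WT. The part of these lists in the higher Ccl5, Gzmk and Nkg7 of RT2 and RT3 was not tested. The CD4 T scaling above cannot decide it, as it only reset library sizes by a list itself highest in RT2 and RT3. The neutrophil list summed to 9.003 to 103 RPM in RT and 3.48 to 28.6 RPM in WT, and the basophil and mast cell list to 0 in RT and 0 to 2.60 RPM in WT. All deep libraries came from females. Of the shallow ones, RT2 was female and RT3, WT3 and WT4 male, and the part of sex in these values was not tested.

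**Figure D3:**
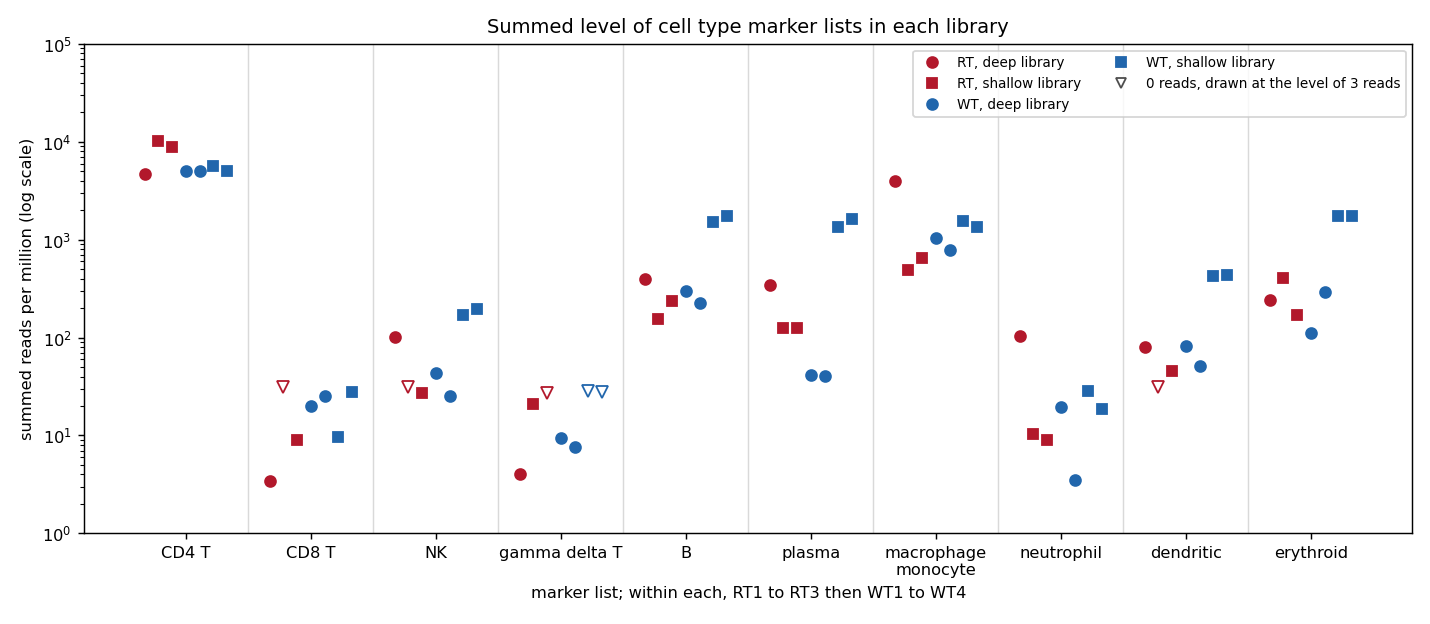
Summed level of each cell type marker list in each library, in RPM on a log axis, with RT1 to RT3 to the left of WT1 to WT4 within each list. The CD4 T list is highest in RT2 and RT3, the macrophage and monocyte list in RT1, and the B, plasma cell, dendritic and erythroid lists in WT3 and WT4.

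The wider pathway was read from further gene lists, in the main fit on reads, where 17.9% of genes passed. None of their genes passed in the RPKM test. Of 21 granule and exocytosis genes, 13 were tested, 6 rose and 1 fell in RT, with a median log2 fold change of 0.12, against -0.03 over all genes. In the same fit 6 of the 7 macrophage and monocyte genes tested rose, and RT1 summed to 3998 RPM of that list, against 1047 RPM in WT1 and 778 RPM in WT2. Its part in the rise of the granule genes was not tested. Srgn, which encodes serglycin, the proteoglycan that packs granzymes, stood at 68.8, 465 and 419 RPKM in RT1, RT2 and RT3, against 37.7, 28.3, 180 and 183 RPKM in WT1 to WT4. It rose by 1.11 ± 0.17 (SE, limma adjusted p = 0.00397) and was higher in RT within both sets. Lamp1, a lysosomal membrane protein exposed on degranulation, stood at 91.3, 141 and 163 RPKM in RT1, RT2 and RT3, against 35.0, 34.7, 91.1 and 108 RPKM in WT1 to WT4, and rose by 1.20 ± 0.17 (limma adjusted p = 0.00280). Ctsw, a cathepsin of cytotoxic cells, fell by 1.61 on the log2 scale (SE 0.20, limma adjusted p = 0.00188). It had 136 reads in RT1, against 346 in WT1 and 413 in WT2, and 2 to 3 reads in each shallow library. Stx11, a syntaxin of granule fusion, was singled out after its values were seen. It stood at 28.3, 133 and 70.3 RPKM in RT1, RT2 and RT3, against 7.40, 2.57, 11.98 and 0 RPKM in WT1 to WT4, and rose by 2.78 ± 0.48 (limma adjusted p = 0.00666). The granzyme genes Gzmd, Gzme, Gzmf, Gzmg and Gzmn had 0 reads in all 7 libraries.

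Of 27 chemokines other than Ccl3, Ccl4 and Ccl5, 8 had 0 reads in all 7 libraries. In RT2 and RT3, where a level under 27.0 to 31.1 RPM can go unseen, 22 had 0 reads. Cxcl10, an interferon-induced chemokine, was the only one tested. It stood at 4.08, 106 and 133 RPKM in RT1, RT2 and RT3, against 2.04, 0.776, 5.23 and 5.11 RPKM in WT1 to WT4, and rose by 1.95 ± 0.44 (SE, limma adjusted p = 0.0206). Within both sets every RT library was above every WT library. Ccr3, a chemokine receptor of granulocytes and some T cells, rose by 1.76 ± 0.35 (limma adjusted p = 0.0126), on 1028 reads in RT1, against 246 in WT1 and 232 in WT2. RT2 and RT3 had 0 reads of Ccr3, against 3 in WT3 and 7 in WT4.

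Transcription factors that shape the cytotoxic programme moved in both directions. Of 14 regulators, 11 were tested, 2 rose and 6 fell, with a median log2 fold change of -0.84. Bach2, which restrains effector differentiation, fell by 2.18 (SE 0.21, limma adjusted p = 5.90e-04). Foxo1, a factor of quiescent T cells, fell by 1.62 (SE 0.20, limma adjusted p = 0.00158). Runx3, which promotes cytotoxic genes in mouse CD8+ T cells, fell by 1.39 (SE 0.19, limma adjusted p = 0.00288). Bhlhe40 and Nfil3 were singled out after their values were seen. Bhlhe40 rose by 2.27 ± 0.39 (limma adjusted p = 0.00655) and Nfil3 by 2.30 ± 0.48 (limma adjusted p = 0.0148). Foxo1 was at 8.68, 6.55 and 11.4 RPKM in RT1, RT2 and RT3, against 22.1, 31.8, 28.1 and 18.0 RPKM in WT1 to WT4, so the groups did not overlap. Runx3 was at 4.44, 9.45 and 19.7 RPKM in RT1, RT2 and RT3, against 10.9, 13.4, 15.1 and 18.1 RPKM in WT1 to WT4, and overlapped. Of 13 surface receptors of cytotoxic cells, 12 were in the table, 1 was tested and it did not pass. Summed, the 12 ran from 41.5 to 119 RPM in RT and 136 to 229 RPM in WT. Every RT library thus lay below every WT library, on few reads in the shallow set, and the sum was not tested. Without RT1 the main fit on reads called 0 of 5869 genes, with 168 higher and 326 lower genes at an unadjusted p under 0.05. In the shallow libraries alone, Srgn (1.22, limma adjusted p = 4.43e-04), Stx11 (4.75, 5.64e-04), Cxcl10 (3.93, 0.0163) and Foxo1 (-1.35, 0.0401) passed in the same direction. Lamp1 (0.57), Ctsw (-0.24), Bach2 (-2.17) and Runx3 (-0.27) did not pass there, and Ccr3 (-3.32) did not pass and had the opposite sign.

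**Figure D4:**
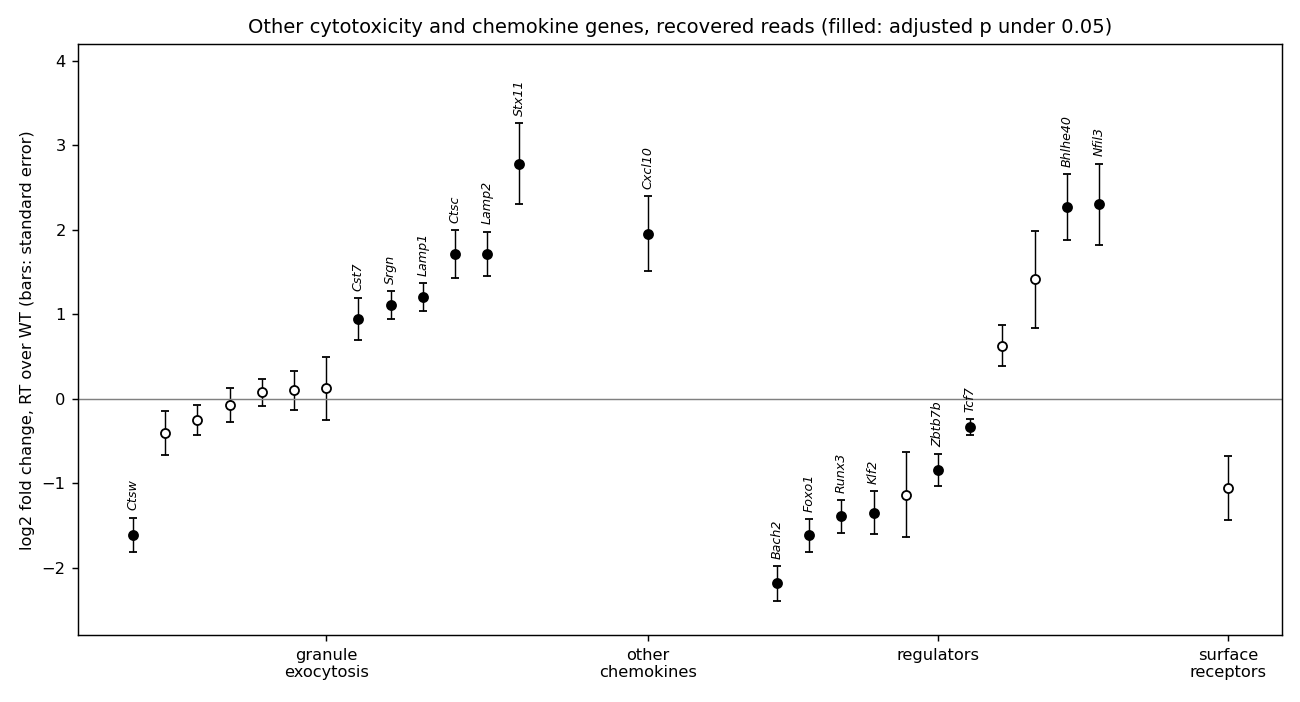
Log2 fold change of RT over WT in the fit on recovered reads for the genes of 4 pathway lists that passed the read filter; bars are standard errors and filled points have an adjusted p under 0.05. Points are ordered by value within a list and do not include the 10 genes themselves, and named points outside the 3 lowest p-values of a list were labelled after their values were seen.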

How the data were processed

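CD4+ splenocytes of 3 RT and 4 WT mice were profiled by RNA-seq from 150 ng of total RNA, per the labels' protocols. The authors deposited RPKM values for 19589 gene symbols; per the submitters' processing notes the build was mm10, with the aligner, counter and annotation not given in the sources used here. Whole reads were recovered as RPKM times gene length times library total, with GENCODE M21 exon lengths or, where these failed, a searched length. Under 100 reads, 78.9% to 83.9% of values came out whole within 0.01 reads with the annotated length. Tests were limma 3.58.1 in R 4.3.3, two-sided, with Benjamini-Hochberg adjustment over all genes kept and a threshold of 0.05. The first used log2(RPKM + 1) for genes at 1 RPKM or more in 3 libraries, a scale that understates changes of low genes. The second used voom on recovered reads with a library set term and leans on the deep libraries. Genes and lists were chosen with earlier results of these data known. Named are all 10 genes and, of each further list, up to 3 called genes with the smallest p. Stx11, Bhlhe40 and Nfil3 were named besides, after their values were seen. Results of 2 further lists that turn on single genes are not reported here in full. Intervals and limits cover counting error only. Scripts were tested on simulated data.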

Additional observations from a re-analysis of the deposited data

Results flagged for a closer look

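In 2 of the 10 genes, the highest WT value lay apart from the others by Dixon's test at 95%, which flags about 1 in 20 groups by chance and takes no account of depth. Gzma stood at 0.966 RPM in WT2, on 10 reads, with 0 reads in WT1, WT3 and WT4, and 0 reads in WT3 and WT4 allow levels of up to 28.6 and 27.9 RPM. Gzmk stood at 27.9 RPM in WT4, on 3 reads, against 9.53 to 10.6 RPM in WT1, WT2 and WT3. The 95% Poisson interval of that value, 5.74 to 81.4 RPM, covers the other WT values.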

How the results depend on the processing

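Both main tests called 0 of the genes. On RPKM this became 1 in the shallow libraries alone (Ccl4), and 0 to 1 when 1 library was left out (Gzmk without RT1). On reads it became 2 with a filter of 1 shallow read (Prf1 and Fasl), 3 in the shallow libraries alone (Ccl5, Gzmk and Nkg7), and 0 to 1 when 1 library was left out (Ccl3 without WT1 or WT2). The 2 calls of the 1-read filter became 1 with library sizes by CD4 T genes or with WT3 and WT4 summed, and 0 to 2 when 1 library was left out. The causes were not tested. The 3 calls of the shallow libraries ranged from 2 to 3.

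Directions turned as follows. On RPKM the deep libraries alone gave -0.82 for Ccl4, -0.75 for Ccl5, -0.16 for Gzmk, -1.09 for Nkg7 and -0.79 for Hopx, and the shallow libraries alone gave 0.996 for Fasl. Leaving out 1 library gave -1.003 to 0.62 for Fasl. On reads the shallow libraries alone gave 2.54 for Ccl4, 2.58 for Nkg7 and 1.88 for Hopx. The deep libraries alone gave -0.69 for Ccl5 and -0.23 for Gzmk, or -0.71 and -0.23 with 10 reads asked of the deep libraries, and a filter of 30 shallow reads gave -0.080 for Gzmk. Leaving out 1 library gave -1.30 to 2.54 for Ccl4, -0.26 to 2.55 for Ccl5, -0.020 to 4.195 for Gzmk, -1.07 to 2.57 for Nkg7 and -0.89 to 1.88 for Hopx. With the 1-read filter it gave -0.55 to 2.53 for Ccl4, -0.32 to 2.55 for Ccl5, -0.89 to 2.57 for Nkg7, -3.995 to 0.59 for Fasl and -0.81 to 1.88 for Hopx.

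Deviations of same-numbered libraries from their genotype means correlated at 0.43, -0.18 and 0.18 for replicates 1, 2 and 3. Library set was not removed first. Replicates 1 and 3 each fall in a single set and replicate 2 in both, so these values cannot decide whether the samples were paired. With the replicate number as a block, 0 of the genes were called in either test, and Nkg7 on reads was 0.0067. The block left 312 genes called on reads, against 1048 without it. Depth limits the shallow libraries, where 3 reads are 27.0 to 31.1 RPM, and RT has 1 deep library.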
